A study of Mus musculus with 13 samples.

Results

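Blood group antigens are variants of proteins and sugars on the surface of red cells, and the genes described here encode the proteins that carry some of them. The 9 genes are Gypc, Rhag, Rhd, Kel, Xk, Ermap, Icam4, Bcam and Ackr1, chosen by name as carriers of blood group antigens. They are 9 of 23337 genes in the count files of the EKLF+/+ and EKLF-/- libraries, of 35498 in the EKLF/GFP libraries and of 54227 in the single-cell library. All 9 were found in each of the 3 data sets, and Ackr1 is listed under its older symbol Darc in the EKLF+/+ and EKLF-/- files.

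Red cell precursors build a membrane in which a few large complexes tie the lipid bilayer to the spectrin skeleton, and most blood group proteins sit in or near these complexes. The Rh proteins form a complex with Rhag that is anchored through ankyrin, glycophorin C is anchored through protein 4.1, and the Kell protein is bound to Xk by a disulfide bond. Other carriers are adhesion molecules or receptors: Icam4 and Bcam bind integrins and laminin, Ermap belongs to the butyrophilin family, and Ackr1 takes up chemokines without signalling through G proteins.

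The study examined cells that carry F4/80, a surface protein of macrophages, from mouse fetal liver at E13.5, when this organ makes red cells around macrophages of erythroblastic islands. EKLF, encoded by Klf1, is a transcription factor of the erythroid lineage, and the study asked which genes depend on it in F4/80+ cells and which mark the cells that express it. Bulk RNA-Seq was made from 12 libraries, 3 biological replicates in each of 4 groups, and single-cell RNA-Seq from 1 library. Every sample is labelled C57BL/6.

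The EKLF+/+ group is wild type and the EKLF-/- group lacks functional EKLF in every cell, although the paper lists this line on another inbred background. The EKLF/GFP+ and EKLF/GFP- groups come from wild-type embryos that carry GFP under the EKLF promoter, sorted by GFP, so that GFP reports the activity of this promoter and not the protein. Cells of all 12 bulk libraries were sorted for F4/80 by flow cytometry. RNA of the EKLF/GFP+ cells was prepared with another kit than that of the other groups, so that kit and group cannot be told apart. The paper also gives a lower RNA integrity number for these cells than for the EKLF+/+ and EKLF-/- samples, and none for EKLF/GFP-. The part of RNA quality in the levels and transcript shares of these libraries was not tested. The single-cell library was made from wild-type littermate embryos that were pooled, after magnetic selection for F4/80 and release of attached cells with a peptide that blocks the binding of Icam4 to integrin αv.

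The EKLF+/+ libraries held 10695514, 15362161 and 12503257 counts on genes, and the EKLF-/- libraries held 13879718, 13382180 and 12592603. Sorted cells gave 27556645, 25379330 and 25475903 counts in EKLF/GFP+ and 26910637, 28736342 and 22723197 in EKLF/GFP-. The single-cell library held 3096 barcodes, of which 3093 had at least 200 detected genes and were kept, with a median of 18605 counts. A normalized count is a count scaled for the size and composition of the library, and it is not corrected for gene length, so that it compares 1 gene between libraries and not 1 gene with another. Groups were compared by edgeR's quasi-likelihood test over all genes that reached 10 counts in 3 or more of the 6 libraries compared. Adjusted p-values are those of Benjamini-Hochberg over all genes tested, with a threshold of 0.05.

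The comparison of EKLF-/- with EKLF+/+ cells asks what the loss of EKLF changes in F4/80+ cells. Values are given in the order of replicates 1 to 3 throughout. Klf1 itself had 4731, 3977 and 4906 normalized counts in EKLF+/+ libraries, and 766.7, 838.4 and 745.5 were left in EKLF-/- libraries. All 3 EKLF-/- libraries thus lay below the EKLF+/+ libraries, and reads on Klf1 remained in each. Of the 9 blood group carrier genes, all 9 were tested and 7 were lower in EKLF-/-, against 10.6% of all 12753 genes that were lower and 20.3% that were called in either direction. By edgeR no member was higher, at an unadjusted p as well, nor by DESeq2, against 9.72% of all genes tested. With 1 library left out, the number of all genes that were lower moved from 1356 to as few as 575, when EKLF-/- replicate 3 was missing, and to as many as 1889, when it was EKLF-/- replicate 1. The median log2 fold change of the 9 members was -0.96, and that of all genes was 0.02. Bulk libraries do not tell apart fewer cells of a type and less RNA per cell.

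**Figure D1:**
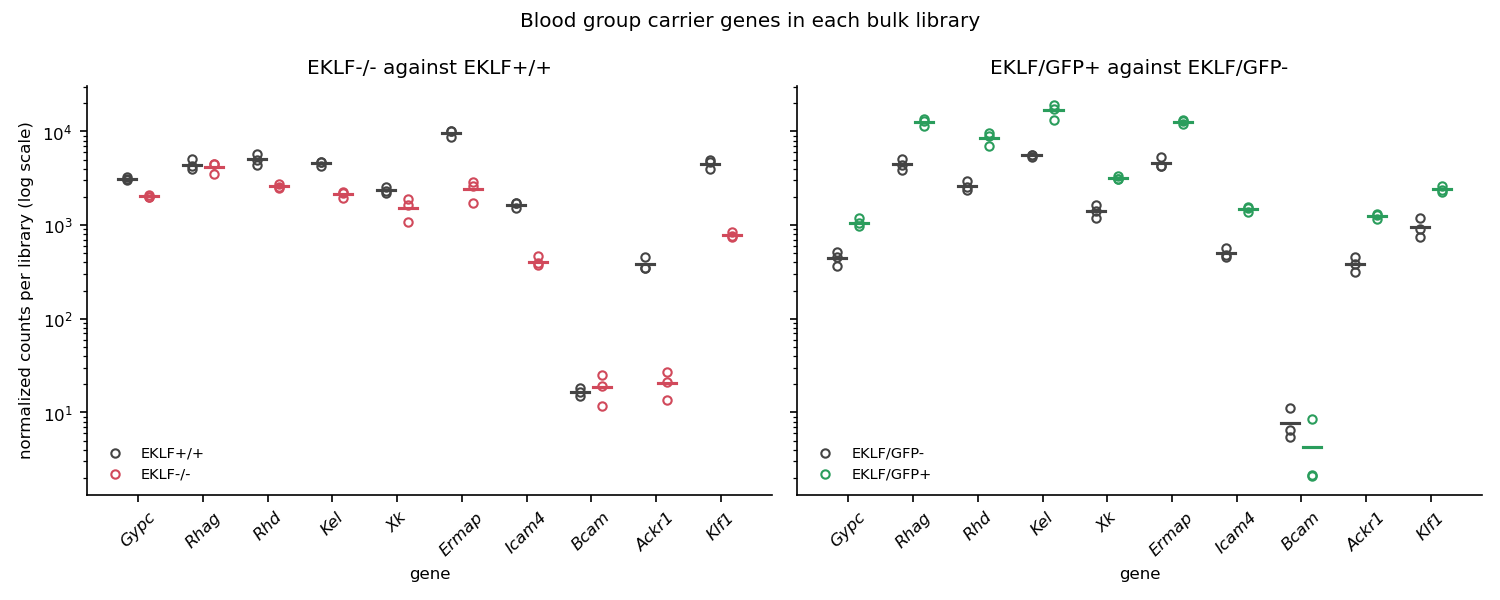
Normalized counts of the 9 blood group carrier genes and of Klf1 in each bulk library, on a log scale, with a circle for each of 3 libraries per group and a line at the mean. In EKLF-/- the drop was widest for Ackr1, and no drop was called for Rhag and Bcam. In EKLF/GFP+, 8 members lay higher than in EKLF/GFP-.

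Among the adhesion molecules and receptors, Ackr1, the Duffy antigen receptor, had 345, 350.5 and 456 normalized counts in EKLF+/+ and 13.6, 27.0 and 21.1 in EKLF-/-. Even the highest EKLF-/- library was far below the lowest EKLF+/+ library. The log2 fold change was -4.22 (standard error 0.25, edgeR with Benjamini-Hochberg, adjusted p = 2.09e-05), an 18.7-fold difference and the largest among the members. Icam4, the Landsteiner-Wiener antigen and a ligand of integrins in erythroblastic islands, had 1706, 1508 and 1724 normalized counts in EKLF+/+ and 390.1, 464.1 and 371.2 in EKLF-/-. The groups did not overlap, and the log2 fold change was -2.01 (standard error 0.12, edgeR with Benjamini-Hochberg, adjusted p = 2.58e-05). Ermap, which carries the Scianna antigens, had 10010, 8710 and 10060 in EKLF+/+ and 2877, 1708 and 2640 in EKLF-/-. It was lower in all 3 EKLF-/- libraries and lowest in replicate 2, and its log2 fold change was -1.99 (standard error 0.20, edgeR with Benjamini-Hochberg, adjusted p = 0.000398).

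Bcam, the Lutheran glycoprotein and a laminin receptor, was close to the limit of detection. It had 18.1, 16.5 and 15.2 normalized counts in EKLF+/+ and 11.8, 24.95 and 19.1 in EKLF-/-, so that the groups overlapped. The log2 fold change was 0.16 with a 95% confidence interval from -0.61 to 0.93 (edgeR with Benjamini-Hochberg, adjusted p = 0.746). It was -0.13 without EKLF-/- replicate 2, and a difference within this interval was not detectable at this depth.

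The Kell and Kx proteins form 1 complex on the red cell surface. Kel, a metalloprotease of the neprilysin family that carries the Kell antigens, had 4740, 4267 and 4707 normalized counts in EKLF+/+ and 2266, 1968 and 2223 in EKLF-/-. Every EKLF-/- library was below every EKLF+/+ library, and the log2 fold change was -1.09 (standard error 0.11, edgeR with Benjamini-Hochberg, adjusted p = 0.000431). Its partner Xk, a lipid scramblase on the X chromosome, had 2227, 2303 and 2566 in EKLF+/+ and 1903, 1084 and 1624 in EKLF-/-. These groups did not overlap either, and EKLF-/- replicate 2 was the lowest. The log2 fold change of -0.62 (standard error 0.19) was only just past the threshold (edgeR with Benjamini-Hochberg, adjusted p = 0.0494).

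The call of Xk rested on single libraries. It was lost without EKLF+/+ replicate 1, 2 or 3, at -0.67, -0.66 and -0.58, and without EKLF-/- replicate 3, at -0.66. It was also lost when globin genes were left out before normalization, at -0.62 (edgeR with Benjamini-Hochberg, adjusted p = 0.0508), in a range of adjusted p from 0.0112 to 0.134 over the alternatives. The embryos of a group differed in sex, since reads of Ddx3y, on the Y chromosome, were plentiful in EKLF+/+ replicate 1 (997.7 normalized counts), EKLF+/+ replicate 2 (908.8) and EKLF-/- replicate 2 (653.7), against 2.01 or fewer in the others. In a fit that held the presence of these reads constant, which was chosen after seeing the data, Xk had a log2 fold change of -0.80 (edgeR with Benjamini-Hochberg, adjusted p = 0.0112), and 7 members were lower.

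The Rh complex changed unevenly. Rhd, which encodes the Rh polypeptide of the mouse, had 5002, 4438 and 5809 normalized counts in EKLF+/+ and 2565, 2751 and 2516 in EKLF-/-. The groups were apart, and its log2 fold change was -0.96 (standard error 0.13, edgeR with Benjamini-Hochberg, adjusted p = 0.00186). Rhag, the Rh-associated glycoprotein that the Rh polypeptide needs to reach the surface, had 4245, 4012 and 5036 in EKLF+/+ and 4490, 3482 and 4513 in EKLF-/-. These groups overlapped, and the log2 fold change was -0.09 with a 95% confidence interval from -0.42 to 0.23 (edgeR with Benjamini-Hochberg, adjusted p = 0.659). Without EKLF-/- replicate 2 it was 0.01.

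The uneven change can be read within each library, where the scaling has no part. The ratio of Rhd counts to Rhag counts was 1.18, 1.11 and 1.15 in EKLF+/+ and 0.571, 0.790 and 0.558 in EKLF-/-. All 3 EKLF-/- libraries had the lower ratio, with an exact permutation p of 0.1 (two-sided), the smallest that 3 against 3 libraries allow. The ratio of Kel to Xk was 2.13, 1.85 and 1.83 in EKLF+/+ and 1.19, 1.82 and 1.37 in EKLF-/-, apart by a narrow margin (exact permutation p = 0.1, two-sided). Icam4 over Ermap was 0.17, 0.173 and 0.171 in EKLF+/+ and 0.136, 0.272 and 0.141 in EKLF-/-, and the groups overlapped (exact permutation p = 1.0, two-sided). Its mean was higher in EKLF-/- only through replicate 2, without which the difference was -0.033. These 3 ratios were the ones computed, in both comparisons, and their p-values cannot pass 0.05 in this design.

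Gypc, which encodes glycophorins C and D and carries the Gerbich antigens, had 3059, 3087 and 3257 normalized counts in EKLF+/+ and 2122, 2006 and 2010 in EKLF-/-. Libraries of 1 group lay close together, and the groups were apart. The log2 fold change was -0.62 (standard error 0.09, edgeR with Benjamini-Hochberg, adjusted p = 0.00389). In all, 7 of the 9 members had groups that did not overlap, against 46.3% of all genes tested in this comparison.

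The cells in these libraries were a mixture. The summed normalized counts of the erythroid-like markers, of which Slc4a1 was the most abundant, were 132600, 130600 and 156600 in EKLF+/+ and 107600, 89330 and 100500 in EKLF-/-. The lower sum came from Slc4a1, since without it the sums overlapped, at 68020, 63680 and 81610 in EKLF+/+ and 77350, 71290 and 75380 in EKLF-/-. Of 10 markers on this list, 7 were tested, 3 were lower and 1 was higher, and Ahsp and Hbb-bt were not in these files. The neutrophil-like markers, led by Mpo, had 69940, 89940 and 68720 in EKLF+/+ and 92130, 174900 and 111800 in EKLF-/-, with 4 of 8 higher. EKLF-/- replicate 2 had the highest sum of neutrophil-like markers. Among the EKLF-/- libraries it was the lowest for Xk, Ermap, Kel, Rhag and Gypc and the highest for Rhd, Icam4 and Ackr1. The macrophage-like markers, led by Csf1r, had 3828, 4552 and 4432 in EKLF+/+ and 4171, 6178 and 3956 in EKLF-/-, with 1 of 10 lower. Monocyte-like markers, led by Lyz2, had 9946, 13140 and 12190 against 14420, 23150 and 17440, with 2 of 7 higher. The part of these shifts in the members' changes was not tested.

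Of the remaining marker lists, 4 of 7 endothelial-like genes, 5 of 7 mesenchymal-like, 3 of 6 progenitor-like and 1 of 4 lymphoid-like genes were lower in EKLF-/-. Higher were 1 of 6 megakaryocyte-like, 1 of 4 mast cell- or basophil-like and 1 of 4 lymphoid-like genes, and 0 of 7 hepatoblast-like genes were called by edgeR, at an unadjusted p as well, or by DESeq2. Adgre1, which encodes F4/80, had 349.9, 439.2 and 424.6 normalized counts in EKLF+/+ and 408.3, 526 and 383.3 in EKLF-/-. Its log2 fold change of 0.12 was not past the threshold (edgeR with Benjamini-Hochberg, adjusted p = 0.604), and it was -0.05 without EKLF-/- replicate 2.

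The comparison of EKLF/GFP+ with EKLF/GFP- cells asks what marks F4/80+ cells in which the EKLF promoter is active. Of the 9 members, 8 were tested and all 8 were higher in EKLF/GFP+, against 18.9% of all 14259 genes that were higher and 44.7% called in either direction. By edgeR none was lower, at an unadjusted p as well, nor by DESeq2, against 25.8% of all genes. Their median log2 fold change was 1.53, and that of all genes was -0.01. The 8 log2 fold changes lay between 1.17 for Xk and 1.7 for Ackr1, a far narrower range than in EKLF-/-. In all 8 the groups did not overlap, against 55.7% of all genes tested.

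Ackr1 reached 1150, 1321 and 1288 normalized counts in EKLF/GFP+ cells and 387.6, 454 and 313.3 in EKLF/GFP- cells. Icam4 had 1368, 1562 and 1534 in EKLF/GFP+ and 474.8, 577.1 and 451.7 in EKLF/GFP-. Ermap had 11880, 13270 and 13020 against 4321, 5303 and 4246. In all 3 genes the EKLF/GFP+ libraries were 2.75- to 3.25-fold higher on average. The log2 fold change of Ackr1 was 1.7 (standard error 0.14, edgeR with Benjamini-Hochberg, adjusted p = 4.98e-05), that of Icam4 was 1.57 and that of Ermap was 1.46.

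Kel had 13410, 19360 and 17500 normalized counts in EKLF/GFP+ and 5399, 5617 and 5620 in EKLF/GFP-, with a log2 fold change of 1.6. Xk had 3120, 3097 and 3321 against 1414, 1635 and 1194, with 1.17. Both partners of the Kell complex were thus higher in every EKLF/GFP+ library. Rhd had 6987, 9561 and 9017 against 2574, 2983 and 2380, with a log2 fold change of 1.69. Rhag had 11450, 13510 and 12780 against 4412, 5061 and 3881, with 1.5. Both Rh genes were thus higher in EKLF/GFP+, and the difference from EKLF-/- was not tested. Gypc had 1043, 971 and 1183 in EKLF/GFP+ and 460.7, 516.4 and 364.3 in EKLF/GFP-, with a log2 fold change of 1.25. The adjusted p of all 8 members was at most 0.000229 (edgeR with Benjamini-Hochberg).

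Within libraries, Rhd over Rhag was 0.610, 0.708 and 0.705 in EKLF/GFP+ and 0.583, 0.589 and 0.613 in EKLF/GFP-, with overlapping groups (exact permutation p = 0.2, two-sided). Kel over Xk was 4.30, 6.25 and 5.27 against 3.82, 3.44 and 4.71, which overlapped as well (exact permutation p = 0.2, two-sided). Icam4 over Ermap was 0.115, 0.118 and 0.118 against 0.110, 0.109 and 0.106, apart by a small step (exact permutation p = 0.1, two-sided). Bcam had 9, 2 and 2 reads in EKLF/GFP+ and 7, 6 and 10 in EKLF/GFP-, too few to be tested.

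The reporter separated Klf1 and the erythroid genes. Klf1 had 2626, 2356 and 2278 normalized counts in EKLF/GFP+ and 902.7, 1194 and 747.3 in EKLF/GFP-. Adgre1 had 954.4, 2155 and 2725 in EKLF/GFP+ and 1575, 1275 and 2207 in EKLF/GFP-, and its log2 fold change of 0.21, with a 95% confidence interval from -0.62 to 1.03, turned to -0.1 without EKLF/GFP+ replicate 3. Summed erythroid-like markers, led by Hba-a1, had 225900, 279000 and 261000 in EKLF/GFP+ and 120600, 150500 and 110200 in EKLF/GFP-, and all 9 that were tested were higher. Ahsp, the other gene on that list, was not in the files.

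Neutrophil-like markers, led by Mpo, had 12130, 16490 and 19490 normalized counts in EKLF/GFP+ and 100300, 107900 and 116000 in EKLF/GFP-, with all 8 lower. Monocyte-like markers, led by Lyz2, had 2373, 3347 and 4272 against 33720, 29400 and 33340, with all 7 lower. Macrophage-like markers, led by Csf1r, had 4739, 9824 and 12810 against 10560, 8913 and 12820, with 2 of 10 lower. Of the remaining lists, 6 of 6 megakaryocyte-like genes were higher. Lower were 5 of 7 endothelial-like, 2 of 6 mesenchymal-like, 6 of 6 progenitor-like, 4 of 4 lymphoid-like and 1 of 7 hepatoblast-like genes, and 0 of 5 mast cell- or basophil-like genes were called by edgeR or by DESeq2, with 1 lower at an unadjusted p. Erythroid markers rose and those of neutrophils and monocytes fell along with the members' rise, and their part in it was not tested.

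Levels of different genes can be compared in the EKLF/GFP libraries by TPM, a level per transcript that is corrected for its length and for the size of the library. In EKLF/GFP+, Kel had 729 ± 114 TPM (SD, n = 3), Rhag 320.2 ± 44.7, Ermap 210.4 ± 3.61 and Rhd 147 ± 16.8. Icam4 followed with 43.0 ± 2.09 TPM (SD, n = 3), Ackr1 with 30.9 ± 0.832, Gypc with 30.5 ± 4.79 and Xk with 14.4 ± 1.30. Bcam was last with 0.0496 ± 0.0363 TPM (SD, n = 3). In this order only Ackr1 and Gypc had overlapping libraries. In EKLF/GFP- the order was the same but for Gypc, at 14.2 ± 2.48 TPM (SD, n = 3), which lay above Ackr1 at 9.69 ± 1.78 and overlapped with Icam4 at 15.1 ± 2.00. The 9 genes summed to 1345, 1666 and 1565 TPM in EKLF/GFP+ and 521.2, 551.3 and 487.2 in EKLF/GFP-. These sums include short transcripts and would be lower without them. Transcripts of at least 500 bases held 27.6% of the TPM of Kel and 48.5% of that of Rhag in EKLF/GFP+.

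The first places in this order rested on short annotated transcripts. Of the 5 transcripts of Kel, the full-length Kel-201 of 2530 bases took 65.4%, 66.3% and 69.0% of the gene's reads in EKLF/GFP+. By TPM it took only 14.5%, 13.48% and 16.2%, and the fragment Kel-203 of 384 bases, annotated as a retained intron, took 39.1%, 33.8% and 31.0%. Rhag-202, a transcript of 386 bases annotated for nonsense-mediated decay, took 45.7%, 55.6% and 51.7% of the TPM of Rhag. Over transcripts of at least 500 bases, a limit chosen after seeing the data, Ermap was first with 209 ± 3.92 TPM (SD, n = 3), then Kel with 201 ± 19.4, Rhag with 155 ± 8.10 and Rhd with 147 ± 16.8. Libraries of Kel overlapped with those of Ermap, and those of Rhag with those of Rhd. The other members moved little, with Icam4 at 43.0 ± 2.09, Gypc at 30.5 ± 4.79, Ackr1 at 30.2 ± 1.42 and Xk at 14.4 ± 1.30 TPM (SD, n = 3).

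For 7 members the share of 1 main transcript was compared between both sorted populations, in a design where no difference could pass 0.05. Ermap stood out because 74.6%, 74.2% and 77.4% of its reads in EKLF/GFP+ were assigned to Ermap-203, a transcript of 2855 bases annotated with a retained intron. In EKLF/GFP- it took 76.9%, 77.8% and 75.2%. The share of this transcript overlapped between the groups (exact permutation p = 0.4, two-sided). Most reads of Ermap thus fell on a transcript that is not annotated as coding, but most of its TPM did not. By TPM, Ermap-203 took 36.65%, 36.79% and 41.11% in EKLF/GFP+. The shorter coding transcripts took 34.13%, 27.8% and 30.73% (Ermap-204, 606 bases) and 22.6%, 22.87% and 19.34% (Ermap-209, 637 bases). Rhd was the opposite case, with 99.5%, 99.7% and 99.5% of its reads on the coding transcript Rhd-201 in EKLF/GFP+ and 98.4%, 99.4% and 100% in EKLF/GFP- (exact permutation p = 0.7, two-sided).

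Ackr1-201 held a mean of 97.1% ± 0.937 of the reads of Ackr1 in EKLF/GFP+ and 94.7% ± 3.55 in EKLF/GFP- (SD, n = 3). The main transcripts of the other members took smaller shares, at 59.0% ± 1.20 against 54.1% ± 11.8 for Icam4-202, 48.0% ± 7.73 against 48.5% ± 11.2 for Rhag-203 and 34.7% ± 2.72 against 39.0% ± 3.20 for Gypc-201. Across the 7 members with more than 1 transcript and at least 50 reads in every library, the exact permutation p (two-sided) was between 0.2 and 1.0, where 0.1 is the smallest possible, so that likeness cannot be read from it. Other transcripts varied widely between libraries, as Gypc-202 did with 14.5%, 46.8% and 41.8% in EKLF/GFP+ and 13.7%, 9.11% and 48.3% in EKLF/GFP-. For Rhag and Rhd the sign of the difference depended on 1 library, at 3.53 for Rhag without EKLF/GFP+ replicate 1, 5.88 without EKLF/GFP- replicate 3, and -0.1 for Rhd without EKLF/GFP- replicate 1.

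The single-cell library shows in which cells the members' transcripts lay. Cells were grouped into 17 clusters without the 9 members, and clusters were named from marker lists by limits set after the clusters were seen. As erythroid-like, 640 cells in 4 clusters were named. They held 85.9% of all counts of the 9 members, with 93.95% of Rhd, 93.0% of Icam4, 87.8% of Rhag, 84.3% of Ermap, 83.7% of Ackr1, 69.3% of Xk and 69.05% of Gypc. Of the 1296 counts of Kel, 972 lay there, and of the 48 counts of Bcam only 1. These cells had little Adgre1, between 0.299 and 0.518 counts per 10000 in the 4 clusters against 6.94 and 7.75 in both macrophage-like clusters. The paper reports that the selection by this surface protein was incomplete. It also reports Adgre1 mRNA in all its clusters, and reads those with Klf1 as island macrophages. By imaging it shows single cells with this protein, Add2 and GFP. Here Adgre1 was found in 51.3%, 37.2%, 38.8% and 32.0% of cells of clusters 5, 7, 9 and 10. In the macrophage-like clusters 0 and 4 it was found in 99.5% and 97.4%. Whether the erythroid-like cells carried the protein was not tested. Without globin counts, Adgre1 was at 1.78 in cluster 9 and 1.83 in cluster 10, against 6.99 and 7.84 in the macrophage-like clusters. No caller of doublets was run, so that 2 cells in 1 droplet were not removed. There is 1 library, and all intervals given for cells cover counting error only.

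The share of cells with a count depends on depth. In erythroid-like cells, with a median of 26375.5 counts, Ermap was found in 87.5% (95% Wilson interval 84.7 to 89.8), Rhd in 86.6% and Rhag in 82.3%. Icam4 was found in 73.6% of these cells, Kel in 65.2%, Xk in 63.4%, Gypc in 62.8% and Ackr1 in 22.3%. In the 403 macrophage-like cells of cluster 0, with a median of 22872 counts, these shares were 13.2% for Ermap, 8.93% for Rhd, 8.69% for Rhag, 5.71% for Icam4 and 0.993% for Ackr1. After each cell was thinned to 5000 counts, they were 60.1% in erythroid-like and 2.98% in cluster 0 for Ermap, and 48.7% and 1.49% for Icam4. Free RNA in the droplets was not measured, and the source of the low shares in macrophage-like cells was not tested.

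**Figure D2:**
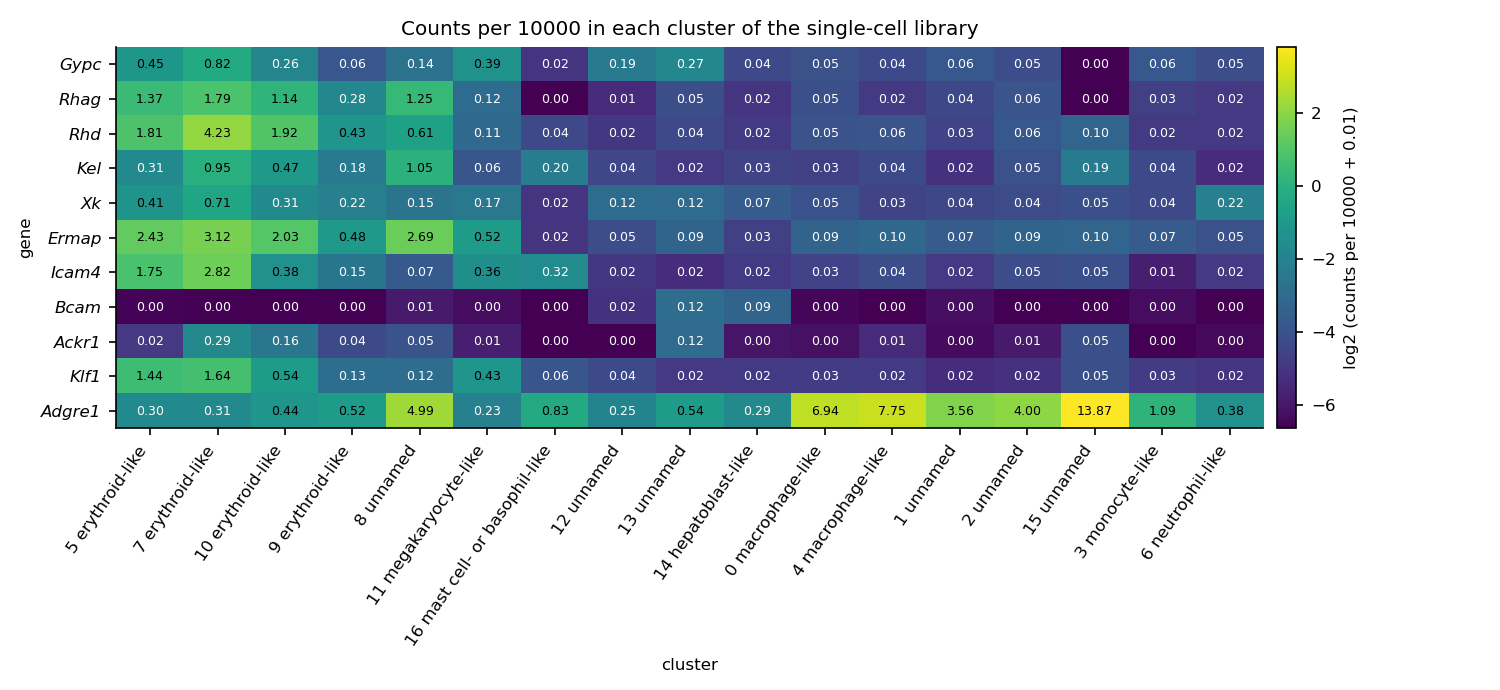
Counts per 10000 counts of the 9 members, Klf1 and Adgre1 in each of the 17 clusters of the single-cell library, with the number printed in each field and a log2 colour scale. Most members, but not Bcam, were high in clusters 5, 7 and 10, and in cluster 8 Ermap, Rhag and Kel were high where Icam4 and Klf1 were low.

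The 4 erythroid-like clusters differed in globin. Cluster 5, of 238 cells led by Mns1 and Tmem56, had 2.10% of its counts on globin genes, cluster 7, of 196 cells led by Hemgn and Slc4a1, had 39.5%, and cluster 10, of 103 cells led by globins and Alas2, had 75.8%. Cluster 9, of 103 cells led by the embryonic globins Hba-x, Hbb-y and Hbb-bh1, had 70.85%. Per 10000 of all counts, cluster 7 was the highest of the 17 clusters for 7 members, with 4.23 counts per 10000 for Rhd, 3.12 for Ermap, 2.82 for Icam4, 1.79 for Rhag, 0.821 for Gypc, 0.706 for Xk and 0.289 for Ackr1. Kel reached 0.955 there and 1.05 in cluster 8, with overlapping intervals. Per 10000 counts without globin the order differed. Cluster 10 was then above cluster 7 for Ermap (8.37 and 5.16) and Rhag (4.71 and 2.95), and below it for Icam4 (1.56 and 4.65). Intervals of these clusters overlapped for Rhd (7.91 and 6.99), Xk (1.28 and 1.17), Ackr1 (0.661 and 0.477), Gypc (1.06 and 1.36) and Kel (1.96 and 1.58, with 1.09 in cluster 8).

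Cluster 9 was lower than cluster 10 for the 8 members found in both, with overlapping intervals for Xk. Per 10000 counts without globin, Rhd had 1.48 in cluster 9 and 7.91 in cluster 10, Ermap had 1.66 and 8.37, and Rhag had 0.969 and 4.71. Klf1 was low there too, at 0.438 against 2.22 in cluster 10. Against cluster 5, cluster 9 was lower on both scales for Rhd, Ermap, Rhag, Icam4 and Gypc, and higher on both for Ackr1, from 6 counts. Intervals overlapped for Rhd without globin and for Ackr1 per 10000 of all counts. For Kel and Xk the order depended on the scale, as for Kel, with 0.623 in cluster 9 and 0.313 in cluster 5 without globin but 0.182 and 0.306 per 10000 of all counts. Cells of cluster 9, with a median of 14798 counts, had a count of Rhd in 33.0%, against 89.3% in cluster 10, with a median of 17699. After thinning, the shares were 18.0% of 89 cells and 60.2% of 103 cells.

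Without cluster 9, the erythroid-like cells were ordered by their globin share into 4 bins of 134 or 135 cells, with medians of 0.455%, 5.03%, 39.8% and 77.4%. Rhd rose from 1.33 to 2.92, 6.41 and 13.4 per 10000 counts without globin across these bins. Ermap rose from 2.24 to 2.94, 5.08 and 10.3, and Kel from 0.195 to 0.578, 1.47 and 3.02. All 3 were higher in each bin than in the bin before, beyond their counting intervals. Ackr1 was nearly missing at the start, with 6 counts in the lowest bin, and rose from 0.00860 to 0.0618, 0.499 and 0.9751. Icam4 rose from 1.44 to 2.50, 4.32 and 5.32, and Rhag from 1.10 to 1.93, 2.87 and 5.42. Much of the last bin came from cells outside cluster 10, since it held 344 counts of Icam4, 868 of Rhd, 195 of Kel and 130 of Gypc, against 71, 359, 89 and 48 in all 103 cells of cluster 10. Gypc rose from 0.3997 to 2.01 and Xk from 0.357 to 1.69, while Klf1 went from 1.36 to 3.59.

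**Figure D3:**
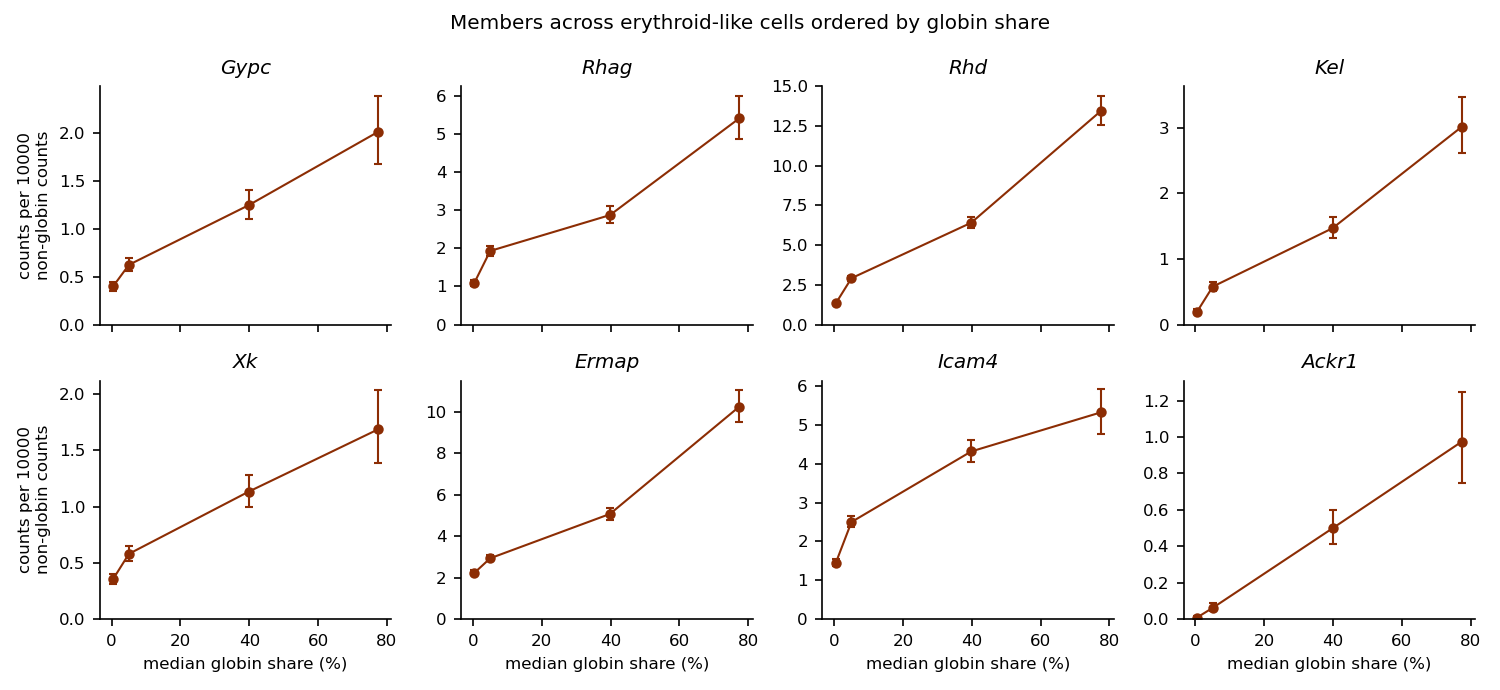
Counts per 10000 non-globin counts of 8 members in erythroid-like cells, in 4 bins by globin share, each placed at the median globin share of its cells, with 95% intervals for counting error. All 8 were highest in the bin with the most globin, although cluster 10 taken alone was below cluster 7 for Icam4.

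The same bins look different per cell, because cells with more globin held fewer other counts. Median counts per cell fell from 51652 in the lowest bin to 19213 in the highest. Counts of Rhd per cell were 6.87, 10.9, 10.6 and 6.48 across the bins, and those of Ermap were 11.6, 10.99, 8.36 and 4.95. Icam4 had 7.47, 9.37, 7.11 and 2.57 counts per cell. Ackr1, in contrast, had 0.0444, 0.231, 0.821 and 0.470. Per cell, only Ackr1 and Kel were thus higher in the last bin than in the first, Kel with 1.01, 2.16, 2.42 and 1.46.

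For 3 pairs of members the share of cells with both was compared with the product of their shares. In erythroid-like cells thinned to 5000 counts, both Rhag and Rhd were found in 35.9% of 624 cells, where the product of their shares is 30.3%. Taken within each cluster and summed, the product is 33.7%, so that most of the gap came from the mixture of clusters. Ermap and Icam4 were both found in 34.3%, with products of 29.3% and 33.4%, and Kel and Xk in 5.29%, with 5.16% and 5.72%. No link between the genes of a pair is read from these shares. Rhd over Rhag in summed counts was 1.33 in cluster 5, 2.37 in cluster 7 and 1.68 in cluster 10. Kel over Xk was 0.750, 1.35 and 1.53 in the same clusters.

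Cluster 8 held some members and not others. Its 125 cells, led by Tmcc2, Ypel4, Xpo7 and Slc2a1, carried markers of both macrophage-like and erythroid-like lists and were left without a name, with 4.99 counts per 10000 of Adgre1 and 3.42% of counts on globin genes. Kel had 1.05 counts per 10000 there, above its 0.306 in cluster 5, whereas Ermap (2.69 and 2.43) and Rhag (1.25 and 1.37) had overlapping intervals in both. Icam4 had only 0.0682, Gypc 0.143, Xk 0.150 and Klf1 0.123. Ermap was found in 89.6% of these cells at a median of 8358 counts, and in 72.9% of 118 cells after thinning, whereas Icam4 was found in 8.00% and 2.54%.

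Some ratios of members set cluster 8 apart from the erythroid-like clusters. Icam4 over Ermap was 0.0253 (95% counting interval 0.0121 to 0.0471), against 0.718 in cluster 5, 0.902 in cluster 7, 0.319 in cluster 9 and 0.187 (0.143 to 0.241) in cluster 10. Kel over Xk was 7.00 (4.461 to 11.5), against 0.750 in cluster 5 and 1.53 (1.09 to 2.17) in cluster 10. Rhd over Rhag was 0.492 (0.378 to 0.636), against 1.33 to 2.37 in the erythroid-like clusters. The intervals of cluster 8 did not overlap with those of any erythroid-like cluster in these 3 ratios, nor in Icam4 over Rhag. They did overlap in the other 2 ratios computed, Kel over Ermap (0.390, with 0.306 in cluster 7 and 0.375 in cluster 9) and Gypc over Ermap (0.0532, with 0.125 in cluster 9). Whether droplets with 2 cells have a part in cluster 8 was not tested.

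Some members were also found in other clusters. In the megakaryocyte-like cluster of 90 cells, Ermap had 0.519, Gypc 0.387 and Icam4 0.356 counts per 10000, with Ermap found in 43.3%, Gypc in 66.7% and Icam4 in 61.1% of cells at a median of 36552.5 counts. After thinning, Gypc and Icam4 were each found in 17.05% of 88 cells and Ermap in 11.4%, against 3.23%, 1.49% and 2.98% in cluster 0. After thinning, Gypc was also found in 12.3% of cells of cluster 12 and 12.2% of cluster 13, and Xk in 6.82% of megakaryocyte-like cells, 9.88% of cluster 12 and 9.76% of cluster 13. Xk had 0.222 counts per 10000 in the neutrophil-like cluster, and was found in 42.1% of its 233 cells and 13.97% after thinning, against 11.9% and 2.23% in cluster 0. The 19 mast cell- or basophil-like cells had 0.316 of Icam4 and 0.198 of Kel, from 16 and 10 counts.

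Bcam and Ackr1 shared cluster 13. This cluster of 83 cells, led by Mest, Sparc, Fabp4 and Lyve1, had markers of endothelial-like and mesenchymal-like lists and was left without a name. It held 16 of the 48 counts of Bcam, and another 19 lay in the hepatoblast-like cluster. Bcam and Ackr1 had 0.124 and 0.116 counts per 10000 in cluster 13, the latter from 15 counts, and Gypc had 0.271. Ackr1 was found in 13.3% of these cells, against 0.993% in cluster 0 and 47.96% in cluster 7, and in 2.44%, 0 of 403 cells and 13.8% after thinning. At that depth the 95% Wilson interval for 0 of 403 cells reaches 0.944%, and before thinning 4 of these cells had a count.

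For each member, the genes with the most similar pattern were sought over the 15 clusters of at least 50 cells among 8838 genes, as a description, since clusters share 1 library and the depth of their cells. Ank1 had the highest correlation with Rhag (Pearson r = 0.992), followed by the member Ermap (0.985). Add2 was nearest to Rhd (0.988), before Ank1 (0.982) and Sptb (0.981). Icam4 was nearest to Slc38a5 (0.995), Klf1 (0.981) and Hemgn (0.98), and Kel to Tmod1 (0.984), Gm37527 (0.981) and Sox6 (0.98). Gm37527 overlaps Kel on the same strand over 3547 bases, so that both can be given the same reads. For Ermap, Rhag was nearest, then Ank1 and Tspo2 (0.964), the latter of which was also the third for Rhag (0.977).

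Gypc and Xk had weaker likeness, with Ank (0.911), Gmpr and Zfpm1 (both 0.910) for Gypc and Cep76 (0.928), Cd24a (0.907) and Urod (0.904) for Xk. Ackr1 and Bcam rest on 258 and 48 counts, and the genes most like them, Ppm1d (0.873), Unkl (0.852) and Hbq1b (0.851), and Gm49394 (0.987), Cmtm8 (0.984) and Fermt2 (0.976), are given for completeness. Among members, Rhag and Ermap were the most alike, and Bcam correlated between -0.34 and 0.10 with each of the others.

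On GRCm38, Gypc (ENSMUSG00000090523) lies on chromosome 18 from 32528322 to 32560034, Rhag (ENSMUSG00000023926) on chromosome 17 from 40811126 to 40840754 and Rhd (ENSMUSG00000028825) on chromosome 4 from 134864536 to 134896172. Kel (ENSMUSG00000029866) lies on chromosome 6 from 41686330 to 41704339 and Xk (ENSMUSG00000015342) on chromosome X from 9272756 to 9313250. Ermap (ENSMUSG00000028644) is on chromosome 4 from 119175457 to 119190011 and Bcam (ENSMUSG00000002980) on chromosome 7 from 19756131 to 19771016. Ackr1 (ENSMUSG00000037872), on chromosome 1 from 173331886 to 173333750, overlaps the gene Cadm3 on the same strand over 493 bases.

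Icam4 (ENSMUSG00000001014) lies on chromosome 9 from 21029373 to 21030595, inside a row of Icam genes on the same strand. For Icam1, 556 bases away on the left, the log2 fold change was 0.05 in EKLF-/- (edgeR with Benjamini-Hochberg, adjusted p = 0.86) and -1.80 in EKLF/GFP+ (edgeR with Benjamini-Hochberg, adjusted p = 0.00136). Icam5, 1478 bases away on the right, had -2.59 in EKLF-/- (edgeR with Benjamini-Hochberg, adjusted p = 0.00259) and 1.79 in EKLF/GFP+ (edgeR with Benjamini-Hochberg, adjusted p = 0.00135). Icam4 thus moved with Icam5 and not with Icam1 in both comparisons. Icam5 had few reads, with means of 39.6 and 6.37 normalized counts in EKLF+/+ and EKLF-/-, and an antisense gene, Gm47079, spans Icam4.

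**Figure D4:**
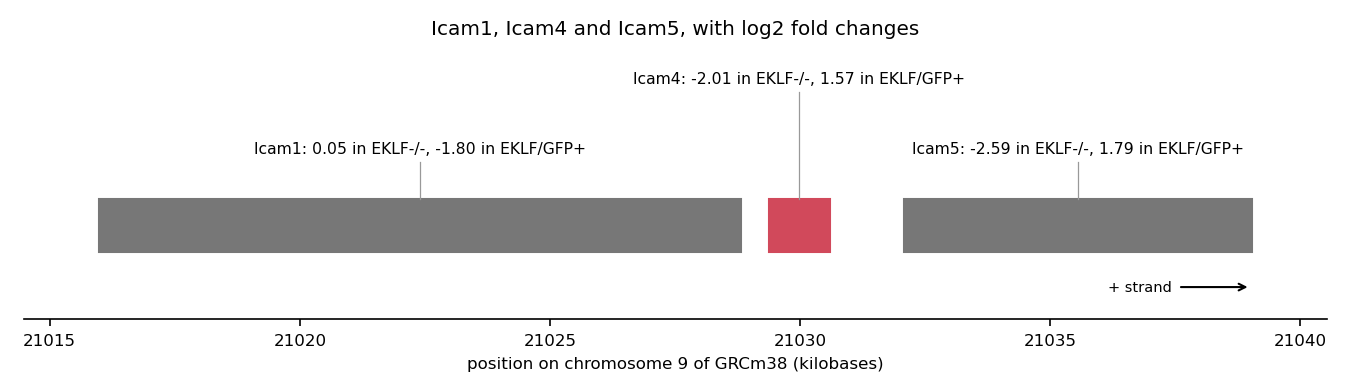
Map of Icam1, Icam4 and Icam5 on chromosome 9 of GRCm38, to scale, in kilobases, with the log2 fold change of each gene in EKLF-/- against EKLF+/+ and in EKLF/GFP+ against EKLF/GFP-. Icam4 (-2.01 and 1.57) and Icam5 (-2.59 and 1.79) moved in the same directions.

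Genes beside the other members varied. Crisp2, next to Rhag, was higher in EKLF/GFP+, at 1.46, close to the 1.5 of Rhag, although it had few reads, and it was too low to be tested in EKLF-/-. Of the neighbours of Rhd, Maco1 had log2 fold changes of -0.36 in EKLF-/- and 0.52 in EKLF/GFP+, and Tmem50a had 0.43 and -0.35. Beside Ermap, Zfp691 had -0.08 and 0.53 and Svbp had -0.44 and 0.93. By edgeR with Benjamini-Hochberg, none of these 4 genes was called in EKLF-/-, where their adjusted p was between 0.0533 and 0.781, and all 4 were called in EKLF/GFP+. Aim2, next to Ackr1, had -0.23 and -1.58, the latter against the direction of Ackr1.

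Promoters of 8 of the 9 members were read from the RefSeq table of GRCm38.p6 entries, and Gypc was left out. Each window runs from 250 bases before to 50 bases after the gene's start, 300 bases in all. The motif CCNCNCCC, the short form of the element that EKLF binds, was searched on both strands, as were its special case CCACACCC and AGATAA, a motif of GATA factors. CCNCNCCC was found in 4 of 8 members (Rhd, Xk, Icam4 and Bcam), against 49.5% of all 32851 promoters. AGATAA was found in 4 (Rhd, Kel, Icam4 and Ackr1), against 11.2% of all, and CCACACCC in 0 of 8, against 3.56%. Ermap and Rhag had no match in this window. Such a match describes letters and is not a binding site.

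The 4 promoters with AGATAA are shown. Their genes were lower in EKLF-/- and higher in EKLF/GFP+, as were Xk and Ermap, which have no AGATAA here. Capitals mark CCNCNCCC or AGATAA on either strand, in the promoters of Rhd (chr4:134864286-134864585, plus strand), Icam4 (chr9:21029182-21029481, plus strand), Kel (chr6:41704276-41704575, minus strand) and Ackr1 (chr1:173333454-173333753, minus strand). Those of Rhd and Icam4 hold both motifs, and AGATAA or its reverse complement begins at position -43 from the start in both.
Rhd: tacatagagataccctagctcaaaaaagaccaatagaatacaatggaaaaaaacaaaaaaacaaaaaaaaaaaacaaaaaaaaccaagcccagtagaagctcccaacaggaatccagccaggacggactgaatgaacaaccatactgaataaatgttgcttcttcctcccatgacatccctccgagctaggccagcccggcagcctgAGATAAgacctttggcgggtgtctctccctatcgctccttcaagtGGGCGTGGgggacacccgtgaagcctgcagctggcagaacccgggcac
Icam4: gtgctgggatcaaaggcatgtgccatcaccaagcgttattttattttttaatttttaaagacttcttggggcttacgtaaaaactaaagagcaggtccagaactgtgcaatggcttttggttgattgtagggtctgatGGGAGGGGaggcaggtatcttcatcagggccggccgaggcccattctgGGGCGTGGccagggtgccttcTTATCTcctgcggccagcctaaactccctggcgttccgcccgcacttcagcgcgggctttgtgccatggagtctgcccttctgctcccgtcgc
Kel: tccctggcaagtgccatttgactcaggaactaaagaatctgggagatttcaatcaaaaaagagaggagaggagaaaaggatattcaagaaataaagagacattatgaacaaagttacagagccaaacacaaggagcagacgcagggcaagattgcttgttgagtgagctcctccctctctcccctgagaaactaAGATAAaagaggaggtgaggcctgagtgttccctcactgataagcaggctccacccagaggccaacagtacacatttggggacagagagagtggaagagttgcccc
Ackr1: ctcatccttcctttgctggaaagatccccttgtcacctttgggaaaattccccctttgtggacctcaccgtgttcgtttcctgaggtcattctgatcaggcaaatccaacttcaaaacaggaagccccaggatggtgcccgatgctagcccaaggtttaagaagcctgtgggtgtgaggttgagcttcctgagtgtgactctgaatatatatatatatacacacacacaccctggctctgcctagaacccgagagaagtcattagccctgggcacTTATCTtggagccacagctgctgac
In Rhd and Icam4 the same run, GGGCGTGG, is a match to CCNCNCCC on the other strand. Bcam, which was not called in EKLF-/-, has the same run at positions -40 and -28.

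The other carriers of blood group antigens were measured as a list of 20 genes, which shares genes such as Slc4a1 with the erythroid-like markers. In EKLF-/-, 6 of 20 were lower and 0 were higher by edgeR (2 at an unadjusted p and 1 by DESeq2), with a median log2 fold change of -0.21, and in EKLF/GFP+ 13 were higher and 4 lower, with a median of 1.10. All 6 lower genes were higher in EKLF/GFP+. Slc4a1, the anion exchanger band 3, had log2 fold changes of -1.49 and 1.29, the water channel Aqp1 had -3.47 and 1.22, and Cd55, a regulator of complement, had -0.91 and 1.04. The urea transporter Slc14a1 had -0.42 and 1.22, the nucleoside transporter Slc29a1 had -0.49 and 1.16, and Prnp had -1.04 and 1.05. All these values passed the threshold of edgeR with Benjamini-Hochberg.

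The weaker calls on that list depended on single libraries in EKLF-/-. Slc14a1 was no longer called without EKLF+/+ replicate 1 (-0.45), 2 (-0.48) or 3 (-0.37), nor without EKLF-/- replicate 3 (-0.46), nor with the replicate block (-0.42). Slc29a1 was lost without EKLF+/+ replicate 1 or 3 or EKLF-/- replicate 3, at -0.45, -0.49 and -0.51, and Prnp without EKLF+/+ replicate 3, at -0.88. In EKLF/GFP+, Prnp reversed to -0.73 with an offset for transcript length. Of the abundant others, Bsg had 0.01 and 0.64, Abcg2 0.42 and 1.16, and Cd44, a receptor for hyaluronan, -0.21 and -0.66. None of these 3 was called in EKLF-/- by edgeR, and all 3 were called in EKLF/GFP+. Abcg2 was called as higher in EKLF-/- by DESeq2, at 0.41, and without EKLF-/- replicate 2, at 0.48, and for Bsg the sign of the first value depended on the setting.

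Of 13 partners in the membrane complexes, 10 were lower and 0 higher in EKLF-/- by edgeR (0 higher at an unadjusted p or by DESeq2), with a median log2 fold change of -0.72, and 11 were higher and 1 lower in EKLF/GFP+, with a median of 1.49. Dmtn, which bundles actin at the junctions, had -7.66 and 1.57, Add2 had -3.02 and 1.56, and Ank1, the ankyrin that ties band 3 and the Rh complex to spectrin, had -2.01 and 1.49. Epb42 had -1.24 and 1.55, Add1 had -0.79 and 0.75, Mpp1, which binds glycophorin C, had -0.72 and 0.58, Tmod1 had -0.53 and 1.66, and Vps13a, which binds Xk, had -0.98 and 0.26. Add3 was lower in both, at -0.55 and -0.70. Cd47, a member of the Rh complex, was lower in EKLF-/-, at -0.58, and was not called in EKLF/GFP+, at 0.18. Epb41 and Sptb were not called in EKLF-/- by edgeR, at -0.24 and -0.60, although DESeq2 called Sptb, at -0.61, and they had 1.11 and 1.49 in EKLF/GFP+.

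Some of these calls in EKLF-/- also depended on single libraries. Mpp1 was lost without EKLF+/+ replicate 3, at -0.61, or EKLF-/- replicate 3, at -0.71, and Tmod1 without EKLF+/+ replicate 1 or 3 or EKLF-/- replicate 3, at -0.5, -0.5 and -0.56. Vps13a and Add3 were lost without any 1 of the EKLF+/+ libraries or EKLF-/- replicate 3, at -1.03 to -0.96 and at -0.65 to -0.5, and Add3 was also lost with the replicate block, at -0.55. Sptb was called without EKLF-/- replicate 1, at -0.80, or replicate 2, at -0.37. In EKLF/GFP+, Vps13a was lost without EKLF/GFP- replicate 1, at 0.26, or replicate 3, at 0.19, by limma on the authors' normalized counts, at 0.95, and with the Ddx3y covariate chosen after seeing the data, at 0.26. Epb41 thus resembled Rhag, with no call in EKLF-/- and a higher level in EKLF/GFP+, and the difference between the comparisons was not tested.

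Relatives of the members in other cells varied. Of 10 Icam and integrin genes, 1 was lower (Icam5) and 1 higher (Itgb2, at 0.52) in EKLF-/- by edgeR, with a median of -0.06, and 3 were higher and 6 lower in EKLF/GFP+, with a median of -1.31. Itgal, Itgam and Itgb2, integrins of leukocytes, had -1.76, -2.0 and -1.5 in EKLF/GFP+. Itga4, another integrin gene of this list, had -0.71 in EKLF-/- and 0.25 in EKLF/GFP+, and Itgb1 had -0.17 and 0.13. By edgeR, Itgb1 was called in neither, although DESeq2 called it in EKLF/GFP+, at 0.16, and Itga4 was called in EKLF/GFP+. The calls of Itga4 depended on the setting. In EKLF-/- it was called by DESeq2, at -0.72, with the replicate block, at -0.79, and without EKLF-/- replicate 1, at -1.02, or replicate 2, at -0.46. In EKLF/GFP+ it was lost with the replicate block, at 0.24, and without any 1 of 5 libraries, at 0.22 to 0.27. Itgb2 was lost in EKLF-/- without EKLF+/+ replicate 1 or 3 or EKLF-/- replicate 2 or 3, at 0.41 to 0.55. It was also lost with 10 counts required in all 6 libraries, at 0.51 (edgeR with Benjamini-Hochberg, adjusted p = 0.0517).

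Kell relatives of the neprilysin family had 3 of 6 genes tested, of which Mmel1 was lower in EKLF-/-, at -4.90, and higher in EKLF/GFP+, at 1.40, as Kel was, while Ece1 had -0.21 and -0.49, where an offset for transcript length gave -0.88 and a wider error and the call was lost. Of the butyrophilin relatives of Ermap, Btn1a1 was higher in both comparisons, at 3.74 and 1.38, against the direction of Ermap in EKLF-/-, and Btnl10 had -0.47 and 1.68. The first of these was not called by edgeR, but was without EKLF-/- replicate 1, at -0.7. Of 2 tested relatives of Ackr1, Ackr3, another scavenger of chemokines, had -2.09 and 3.77, and Ackr4 had 0.21 in EKLF-/- and too few reads in EKLF/GFP+. Of 2 tested Xk relatives, 0 were called in EKLF-/- by edgeR, at an unadjusted p or by DESeq2, and Xkr8 was lower in EKLF/GFP+, at -1.21, but not with that offset, at -0.65. Rhbg, the tested Rh gene of other tissues, had 0.66 in EKLF-/- and was not called, and it was too low in EKLF/GFP+. Of 5 tested genes for laminin chains and laminin receptors, 0 were called in EKLF-/- by edgeR (2 lower at an unadjusted p and 1 by DESeq2) and Itga6 was lower in EKLF/GFP+, at -1.53.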

How the data were processed

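The 12 bulk libraries and the single-cell library are those described above. The authors deposited raw counts per gene of the EKLF+/+ and EKLF-/- libraries (STAR, htseq-count, mm10). For the EKLF/GFP libraries the authors deposited estimated counts and TPM per transcript (Salmon, Ensembl GRCm38), and a signal table of normalized counts (DESeq2). For single cells the authors deposited estimated counts of molecules (Alevin, GENCODE on GRCm38.p6), of which 4.19% of the values above 0 are not whole. Of 23337 gene names, 1884 older symbols were translated, and 115977 of 116546 transcripts were joined to a gene. Reads on genes were 27.3% to 28.9% of all reads in the EKLF+/+ files and 31.1% to 32.8% in the EKLF-/- files. In both groups together, 67.2% to 72.7% of reads were in rows that name no gene. In the file of EKLF+/+ replicate 1, 5 columns of other libraries were not used, nor was the authors' table of log2 counts.

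Estimated counts were summed per gene and rounded. Tests used edgeR 4.0.16 in R 4.3.3 (TMM, quasi-likelihood, two-sided), and alternatives used DESeq2 1.42.0 and limma 3.58.1. The procedure was tested on simulated data. Cells were clustered with Seurat 5.3.0 (3992 variable genes after removal of 8 members, 30 components, resolution 0.8) and otherwise handled in Python 3.11.15 with numpy 2.4.6, scipy 1.17.1 and pandas 2.3.3. Counts in single cells were thinned to 5000 per cell, and 56 cells under that number were left out there. Shares have Wilson and rates have exact Poisson 95% intervals. Likeness is Pearson's r of log2 counts per 10000 plus 0.1, among genes with at least 500 counts, and members below that were compared as well.

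The 9 members and all lists were chosen with earlier results of these data known. Named genes are all members, Klf1, Adgre1, every gene of a list past the threshold in both comparisons with up to 4 others per list among those of the highest mean count, the 3 genes most like each member, and the nearest genes on the chromosome. Clusters were named from 11 lists of marker genes, by limits set after the clusters were seen. The p-values of the bulk comparisons weigh a difference between groups against the spread between biological replicates. Alternatives were other normalizations and filters, a replicate block, removal of globin genes, an offset for transcript length, the authors' normalized counts, other cell filters and clusterings, and each library left out. Chosen after seeing the data were the covariate for Ddx3y, the limit on transcript length, and leaving out libraries for transcript shares and ratios.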

Additional observations from a re-analysis of the deposited data

How the results depend on the processing

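Of the 9 members, Ackr1, Icam4, Ermap, Kel, Rhd and Gypc stayed lower in EKLF-/- past the threshold under all 13 alternatives, and the 8 members tested stayed higher in EKLF/GFP+ under all 15. Xk was past it under 7 of 13. With the replicate block, which pairs libraries of the same number, Xk had -0.66 (edgeR with Benjamini-Hochberg, adjusted p = 0.0508, in a range from 0.0112 to 0.134). Nothing marked the numbers as pairs, since libraries of the same number correlated between -0.012 and 0.077 in EKLF-/- and EKLF+/+ and between -0.063 and 0.042 in the EKLF/GFP groups.

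Leaving out 1 library moved the genes lower in EKLF-/- between 575 and 1889 and the genes higher between 346 and 1730, from 1356 and 1239 with all 6, and both numbers were highest without EKLF-/- replicate 1. Over the libraries left out, log2 fold changes in EKLF-/- ran from -0.18 to 0.01 for Rhag, -0.13 to 0.41 for Bcam, -0.05 to 0.21 for Adgre1, -0.12 to 0.09 for Bsg and -0.13 to 0.19 for Xkr8. In EKLF/GFP+ they ran from -0.1 to 0.57 for Adgre1 and -0.02 to 0.31 for Xkr5. Bsg was also at 0.0 with DESeq2, with its size factors and with the replicate block, and at -0.01 with 10 counts in all 6 libraries. Prnp, at 1.05 in EKLF/GFP+, was at -0.73 with the offset for transcript length and at -0.67 by limma on the authors' normalized counts. The difference in transcript share ran from -4.74 to 5.88 for Rhag and from -0.1 to 0.71 for Rhd, and that in Icam4 over Ermap from -0.033 to 0.035. The causes were not tested.

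With at least 1000 detected genes per cell, 85.36% of the members' counts lay in erythroid-like clusters, which then had 577 cells in place of 640. Groups of 3 libraries and 1 single-cell library limit all values, exact tests of 3 against 3 cannot go below 0.1, and Bcam and, in single cells, Ackr1 rest on few reads.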
